A study of Mus musculus with 12 samples.

Results

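The genes described here are the integrins, laminins, collagens and matrix glycoproteins on the nCounter Mouse PanCancer Pathways panel, a probe set that counts mRNAs directly by hybridised barcodes. They were taken by name: every integrin α (Itga) and β (Itgb) subunit, every laminin chain (Lama, Lamb, Lamc), every collagen chain (Col followed by a digit), and the glycoproteins *Fn1*, *Thbs1*, *Thbs4*, *Tnc*, *Spp1*, *Comp*, *Ibsp* and *Reln*. This gave 40 of the 770 genes of the panel. The rule uses names and no measured value. The panel was run on 12 samples of cultured mouse hepatocellular carcinoma (HCC) cells, 3 in each of 4 groups. The line called AKT/NRAS came from 1 mouse HCC that arose after hydrodynamic tail vein injection of myristoylated, floxed AKT and active mutant NRAS. AKT Cre/NRAS, spelled AKT/NRAS Cre in the labels, was made from it by transfecting Cre recombinase to take out the AKT transgene. Both lines thus carry the NRAS transgene, and only AKT/NRAS still carries the AKT transgene. Each line was transfected with *Dusp4* siRNA or with a negative control siRNA pool (SCR). Each line stands for a single tumour, and whether AKT Cre/NRAS was 1 clone or a pool is not given in the sources used here.

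Integrins are surface receptors made of 1 α and 1 β subunit, and the pair decides which matrix protein is bound. The α3 subunit (Itga3) and the α6β4 pair (Itga6, Itgb4) bind laminins of the basement membrane, α2 (Itga2) binds collagen, α7 (Itga7) binds laminin, and β3 (Itgb3) is part of receptors that bind the RGD motif of fibronectin and osteopontin. Laminins are trimers of an α, a β and a γ chain, collagens are trimers of α chains, and fibronectin, osteopontin, tenascin-C and thrombospondin-1 are secreted glycoproteins that cells attach to or are released by. In the normal liver, hepatocytes rest on a loose matrix with little laminin, while bile ducts and many liver tumours have a laminin-rich basement membrane, and osteopontin (*Spp1*) is a known product of bile duct cells, activated macrophages and liver cancers.

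Between 252 and 293 of the 770 genes were listed at the floor of 20 in a sample, below which no count is known, and the recovered counts above it summed to between 641790 and 1081646 per sample. Values are given as normalized counts, which are the deposited signals scaled to the 15 steadiest reference genes, with a common floor of 27.1. Lower values were raised to that floor, among them some deposited above 20. A gene at the common floor therefore has no level given here. *Dusp4*, the silenced phosphatase gene, measured 350.2, 389 and 371 normalized counts in the AKT/NRAS siRNA samples and 1273, 1226 and 1186 in the AKT/NRAS SCR samples (log2 difference -1.73, standard error 0.05, limma adjusted p = 1.13e-06). In AKT Cre/NRAS it measured 4126, 4174 and 3769 after siRNA and 6343, 5843 and 4483 after SCR (log2 difference -0.45, standard error 0.12, adjusted p = 0.0178). The groups did not overlap in either line, but in AKT Cre/NRAS the fall passed in 5 of 8 scalings, and its log2 difference was 0.00098 in 1 of them. Of the hepatocyte markers, *Cebpa* was measured in all 12 samples (391 to 779 normalized counts) and *Hgf* was at the floor in all 12. Of the immune markers, 4 of the 5 on the panel were at the floor in every sample and *Cd14* was not, at 1323 to 1790. The 2 fibroblast and stellate markers on the panel summed to 57.9 to 90.9 normalized counts in AKT/NRAS and 262 to 495 in AKT Cre/NRAS, almost all of it *Pdgfra*, since *Pdgfrb* was at the floor throughout. The 3 biliary and progenitor markers on the panel summed to 13395 to 14689 in AKT/NRAS and 3582 to 6522 in AKT Cre/NRAS, most of it *Cdh1*. *Prom1* went the other way, at the floor in AKT/NRAS and at 37.9 to 72.5 in AKT Cre/NRAS. *Sox9* averaged 426 and 359 in AKT/NRAS after SCR and siRNA, and 369 and 564 in AKT Cre/NRAS. The 2 endothelial markers, of which *Kdr* was at the floor, summed to 960 to 1430 in AKT/NRAS and 266 to 522 in AKT Cre/NRAS. The part of these markers in the results below was not tested. The log2 ratio of *Rpl19* to *Polr2a*, 2 reference genes, was 3.81 to 3.92 in AKT/NRAS, 4.72, 4.92 and 5.03 in AKT Cre/NRAS siRNA, and 5.48, 6.36 and 6.88 in AKT Cre/NRAS SCR. The AKT Cre/NRAS SCR samples therefore stand apart from the others and from each other on this ratio. Most results that use them are given with their range, or with how often they passed, over the scalings. Run positions 1 to 3, 4 to 6, 7 to 9 and 10 to 12 each hold 1 group, so that position and group cannot be told apart.

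At the floor of 20, 18 of the 40 genes (45%) were listed in all 12 samples, against 219 of the 770 genes of the panel (28.4%). These were *Col1a2*, *Col3a1*, *Col4a4*, *Col4a6*, *Col6a6*, *Col11a1*, *Col11a2*, *Col24a1*, *Itga8*, *Itga9*, *Itgb6*, *Itgb8*, *Lama1*, *Lama3*, *Lamc3*, *Comp*, *Ibsp* and *Thbs4*. *Col4a3* was above 20 in 1 sample and at or under the common floor in all 12, which left 21 genes above the common floor in at least 1 sample and 13 above it in every sample. *Col27a1* and *Reln* were above it in 1 sample each, at 29.1 and 29.6 normalized counts. *Col2a1* was above it in 4 samples, all of AKT Cre/NRAS, at 27.6 to 35.8. *Col1a1*, the main chain of fibrillar collagen I, stayed between the floor and 47.5 in every group. The chains of collagen I and collagen III on the panel were thus at or near the floor in both lines. Of laminin-332, the β chain *Lamb3* was measured and the α chain *Lama3* was not. Of the 4 RGD-binding integrin subunits on the panel, *Itgb3* was measured and *Itga8*, *Itgb6* and *Itgb8* were not. At the floor, fewer expressing cells and less mRNA per cell cannot be told apart, and the same holds for every lower level below.

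**Figure D1:**
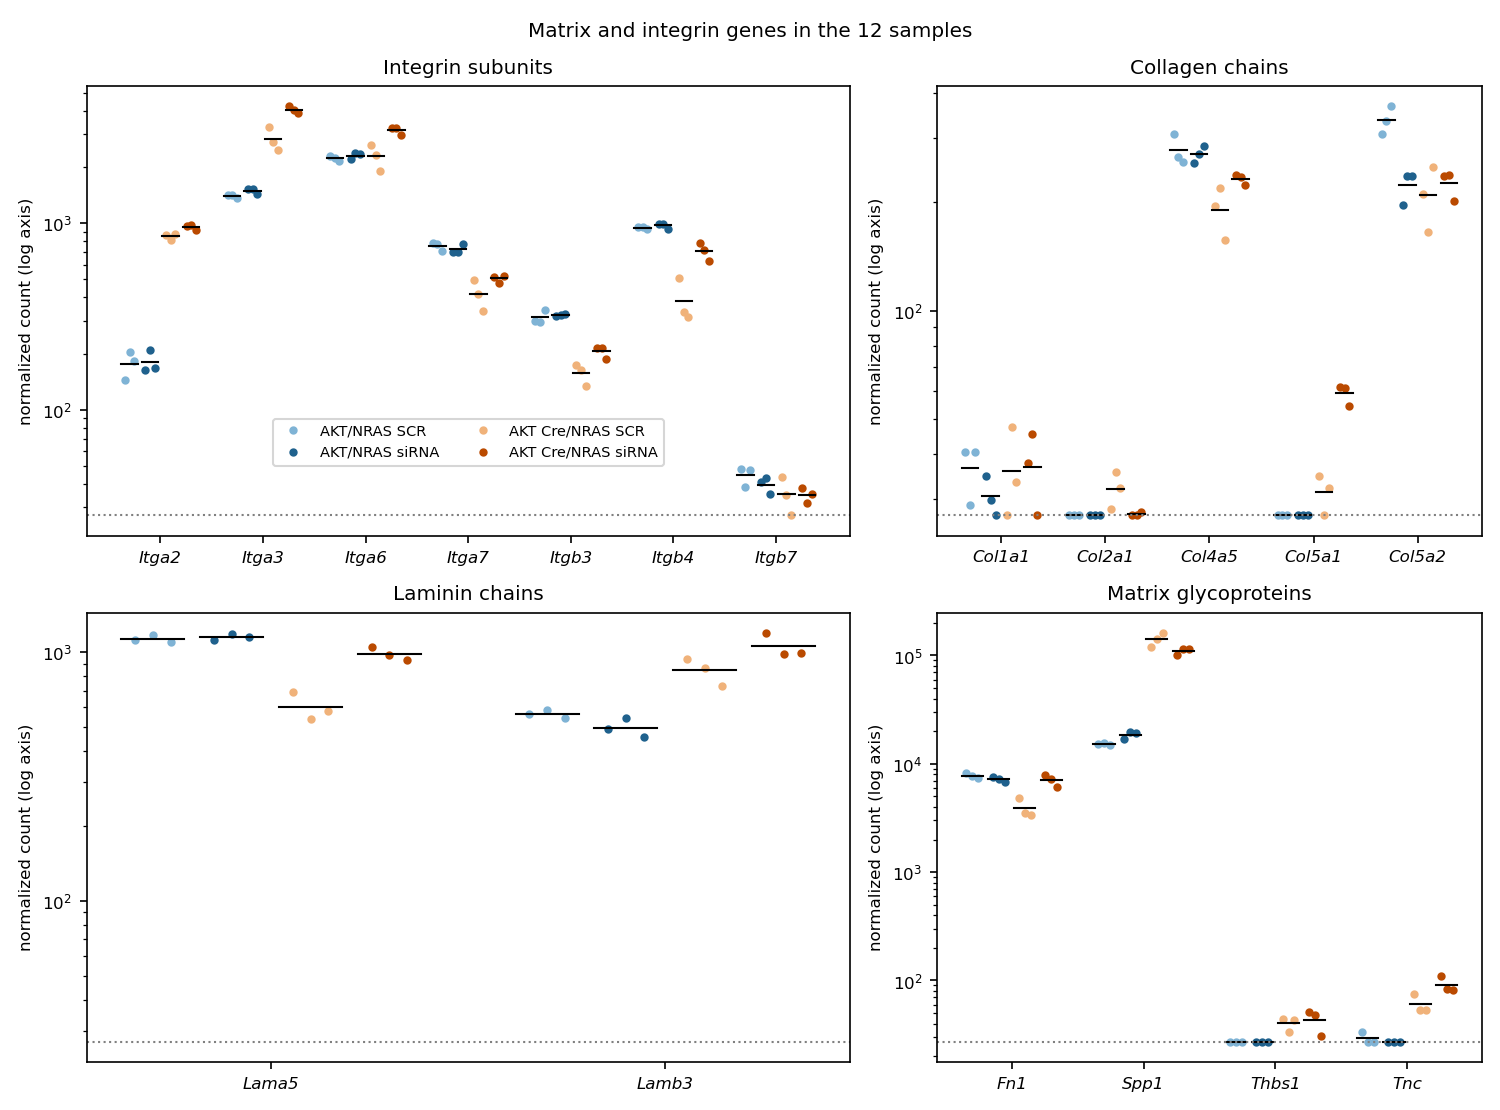
Normalized counts (log axis) of 18 matrix and integrin genes, each above the common floor in more than 1 sample, with 3 points per group, a bar at the mean and a dotted line at the common floor of 27.1. *Spp1*, *Itga2*, *Itga3*, *Lamb3*, *Thbs1* and *Tnc* sit higher in both AKT Cre/NRAS groups than in both AKT/NRAS groups, and *Itgb3*, *Itgb4*, *Itga7* and *Lama5* sit lower.

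The first comparison asks how the matrix and integrin genes differ between the lines, with and without the AKT transgene, under the control siRNA. Under SCR, 6 of the 40 genes were higher in AKT Cre/NRAS, 7 were lower, 6 did not pass and 21 were at the floor in all 6 samples. Over the panel, 28.9% of the 515 tested genes were higher and 48.0% were lower, with a median log2 difference of -0.22. Under *Dusp4* siRNA, 8 were higher in AKT Cre/NRAS, 5 were lower and 8 did not pass, beside 36.6% higher and 37.9% lower of the 522 tested genes of the panel and a median of -0.00053. These shares describe the genes and set them apart from the panel in no tested way, and genes that are high in 1 line pass the floor through that line. The SCR split depends on the scaling. Centring every sample on the median gene gave 10 higher and 5 lower, the deposited values gave 9 and 1, quantile normalization gave 9 and 8, 10 reference genes gave 4 and 8, and 5 reference genes, or reference genes chosen within the comparison, gave 2 and 8. The panel moved too, to 224 higher and 181 lower of 520 tested genes after centring and 202 and 99 of 540 with the deposited values. It gave 191 and 214 of 540 with quantile normalization and 97 and 281 of 511 with 10 reference genes. With 5 reference genes it gave 69 and 256 of 507, and with those chosen within the comparison 59 and 259 of 504. The siRNA split moved less, to 9 higher and 3 lower with the deposited values and 8 higher and 3 lower with 5 reference genes. The panel gave 192 higher and 147 lower of 546 and 204 and 168 of 520 in these 2 scalings. Of the genes that passed, 3 did so in all 8 scalings under SCR (*Spp1*, *Itga2* and *Itgb4*) and 11 under siRNA. A two-sided exact permutation test of a single gene cannot go below p = 0.1 at 3 samples per group, so that the adjusted p values here come from limma fits over all tested genes, and they measure only the spread between these samples. A group at the common floor in all 3 samples has a spread of 0 by that setting, so that the adjusted p does not measure its spread. This holds in AKT/NRAS for *Thbs1* and *Col5a1*, and for *Tnc* after siRNA.

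*Spp1*, which encodes the secreted integrin ligand osteopontin, had the largest difference between the lines among the 40 genes. It measured 15345, 15529 and 14872 normalized counts in the AKT/NRAS SCR samples and 119863, 142698 and 161485 in the AKT Cre/NRAS SCR samples. The difference was 3.20 on the log2 scale, or 9.27-fold (standard error 0.14, adjusted p = 1.74e-07), and lay between 2.30 and 3.71 over 8 scalings. After siRNA it measured 16928, 19518 and 19348 in AKT/NRAS and 101245, 115168 and 115311 in AKT Cre/NRAS (log2 difference 2.57, standard error 0.08, adjusted p = 7.57e-08). In AKT Cre/NRAS it gave the highest signal of all 770 probes in all 6 samples, and 11.2% to 15.3% of the summed panel signal. In AKT/NRAS it gave 1.96% to 2.58% and ranked between 6 and 11. With *Spp1* left out of both sums, the other 39 genes gave 1.33% to 2.67% of the remaining panel signal over the 12 samples.

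Fibronectin (*Fn1*), the main adhesive glycoprotein of the interstitial matrix, ran the other way under SCR. It measured 8223, 7673 and 7384 normalized counts in AKT/NRAS SCR and 4832, 3543 and 3396 in AKT Cre/NRAS SCR (1.98-fold lower, standard error 0.13 on the log2 scale, adjusted p = 0.000163). It passed as lower in 7 of 8 scalings, the exception being the deposited values (-0.49, adjusted p = 0.097). Under siRNA the lines overlapped, with 7592, 7312 and 6735 in AKT/NRAS and 7874, 7199 and 6155 in AKT Cre/NRAS, and the log2 difference was -0.03 (standard error 0.09, adjusted p = 0.759). Tenascin-C (*Tnc*), a glycoprotein of remodelling matrix that weakens adhesion to fibronectin, was at the common floor in 5 of the 6 AKT/NRAS samples and at 33.8 in the other, SCR replicate 1. Its deposited signals in those 5 samples were 20 to 22.69. In AKT Cre/NRAS it measured 74.4, 53.7 and 53.5 after SCR (log2 difference between the lines 1.01, standard error 0.15, adjusted p = 0.000333) and 109, 83.9 and 81.9 after siRNA. Under SCR the difference was 0.48 to 1.55 over the scalings and passed in 6 of 8. The siRNA groups differed by at least 3.39-fold (adjusted p = 5.88e-06), a bound that ran from 3.09 to 3.60 over the 5 scalings in which AKT/NRAS stayed at the floor. Thrombospondin-1 (*Thbs1*), which binds cells and activates latent TGF-β, was at the floor in all 6 AKT/NRAS samples. It measured 44.3, 33.1 and 43.5 in AKT Cre/NRAS SCR and 51.3, 48.4 and 31.1 in AKT Cre/NRAS siRNA. The lines differed by at least 1.49-fold under SCR (adjusted p = 0.00295) and at least 1.61-fold under siRNA (adjusted p = 0.013), and by at least 1.23-fold and 1.47-fold in the scaling that gave the smallest bound. Under SCR it passed in 5 of 8 scalings.

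Among the laminins, the β3 and the α5 chain differed between the lines in opposite directions. *Lamb3*, the β chain of laminin-332, measured 567, 586 and 545 normalized counts in AKT/NRAS SCR and 943, 865 and 729 in AKT Cre/NRAS SCR (log2 difference 0.57, standard error 0.10, adjusted p = 0.001), but it passed in 5 of 8 scalings, with a difference of 0.050 to 1.08. After siRNA it measured 490, 544 and 456 against 1196, 982 and 990.2 (log2 difference 1.09, standard error 0.10, adjusted p = 2.99e-05), and the lines did not overlap in either case. *Lama5*, the α chain of laminin-511, which is the common laminin of adult basement membranes, was lower in AKT Cre/NRAS. It measured 1129.8 ± 37.6 (SD, n = 3) in AKT/NRAS SCR and 603 ± 78.1 (SD, n = 3) in AKT Cre/NRAS SCR (log2 difference -0.91, -1.43 to -0.41 over the scalings, adjusted p = 4.62e-05), and 1154 ± 33.6 against 985 ± 58.3 (SD, n = 3 each) after siRNA (log2 difference -0.23, adjusted p = 0.00469).

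Among the collagens, *Col4a5*, a chain of the collagen IV network of basement membranes, was lower in AKT Cre/NRAS under SCR (190 ± 30.9 against 278 ± 27.1, SD, n = 3 each; log2 difference -0.55, adjusted p = 0.00622) and under siRNA (232 ± 7.39 against 271 ± 14.9, SD, n = 3 each; log2 difference -0.23, adjusted p = 0.0166). The SCR difference ran from -1.07 to -0.050 over the scalings and did not pass after re-centring (adjusted p = 0.147) or with the deposited values (adjusted p = 0.896), and the call under siRNA was lost without AKT/NRAS siRNA replicate 3. The 2 chains of collagen V, a minor fibrillar collagen that starts collagen I fibrils, did not go together. *Col5a1* was at the floor in all 6 AKT/NRAS samples, at 34.8, the floor and 32.3 in AKT Cre/NRAS SCR, and at 61.4, 61.2 and 54.3 in AKT Cre/NRAS siRNA. The lines differed under siRNA by at least 2.18-fold (adjusted p = 3.37e-06), a bound of 1.99 to 3.17 over 8 scalings, and did not pass under SCR (log2 difference 0.20, adjusted p = 0.111). *Col5a2* was lower in AKT Cre/NRAS under SCR (208 ± 42.5 against 337 ± 29.4, SD, n = 3 each; log2 difference -0.71, adjusted p = 0.00295) and its lines overlapped under siRNA (log2 difference 0.02). The SCR difference of *Col5a2* ran from -1.23 to -0.20 and did not pass after re-centring (adjusted p = 0.103) or with the deposited values (adjusted p = 0.551).

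The integrin receptors fell into genes that were higher and genes that were lower in AKT Cre/NRAS. *Itga2*, whose product pairs with β1 as a collagen receptor, measured 144, 204 and 182 normalized counts in AKT/NRAS SCR and 866, 812 and 875 in AKT Cre/NRAS SCR, a 4.82-fold difference (log2 difference 2.28, standard error 0.13, adjusted p = 8.76e-07). After siRNA it measured 163, 210 and 166 against 971, 982 and 919, a 5.32-fold difference (log2 difference 2.41, standard error 0.10, adjusted p = 5.23e-07). In both cases all AKT Cre/NRAS samples lay above all AKT/NRAS samples, in all 8 scalings with a difference of at least 1.76 on the log2 scale. *Itga3*, the α subunit of a laminin-332 and laminin-511 receptor, measured 1415, 1423 and 1363 against 3264, 2735 and 2472 under SCR (log2 difference 1.00, standard error 0.10, adjusted p = 3.1e-05), a difference of 0.48 to 1.51 over the scalings that passed in 6 of 8. Under siRNA it measured 1533, 1519.6 and 1439.8 against 4231, 4071 and 3888 (log2 difference 1.44, standard error 0.04, adjusted p = 7.57e-08). *Itga6*, which pairs with β4 in the hemidesmosome, did not differ beyond the spread under SCR (log2 difference 0.03, standard error 0.11, adjusted p = 0.825), and its value ran from -0.49 to 0.54 over the scalings. It was higher under siRNA, with 3149 ± 161 in AKT Cre/NRAS and 2307 ± 84.0 in AKT/NRAS (SD, n = 3 each; log2 difference 0.45, adjusted p = 8.34e-05).

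*Itgb4*, the partner of α6, was lower in AKT Cre/NRAS. It measured 953, 953 and 936 in AKT/NRAS SCR and 506, 335 and 314 in AKT Cre/NRAS SCR (log2 difference -1.33, standard error 0.17, adjusted p = 9.8e-05), and 973 ± 32.7 against 711 ± 75.9 (SD, n = 3 each) after siRNA (log2 difference -0.46, adjusted p = 0.00123). *Itgb3* was lower under SCR (157 ± 20.9 against 312 ± 25.0, SD, n = 3 each; log2 difference -0.99, adjusted p = 0.000111) and under siRNA (log2 difference -0.65, adjusted p = 0.000104). *Itga7*, a laminin receptor subunit best known from muscle, was lower under SCR (418 ± 79.7 against 757 ± 38.9, SD, n = 3 each; log2 difference -0.87, adjusted p = 0.000393) and under siRNA (log2 difference -0.52, adjusted p = 0.000101). With the deposited values neither *Itgb3* (-0.49) nor *Itga7* (-0.37) passed under SCR, and both passed in the other 7 scalings. *Itgb7*, a leukocyte subunit, lay between the floor and 48.3 in all 12 samples and passed in neither comparison. Among the genes of laminin-332 and its receptors, *Itga3* and *Lamb3* were thus higher and *Itgb4* lower in AKT Cre/NRAS under both siRNAs (*Lamb3* under SCR in 5 of 8 scalings), *Itga6* was higher under *Dusp4* siRNA, and *Lama3* was at the floor.

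**Figure D2:**
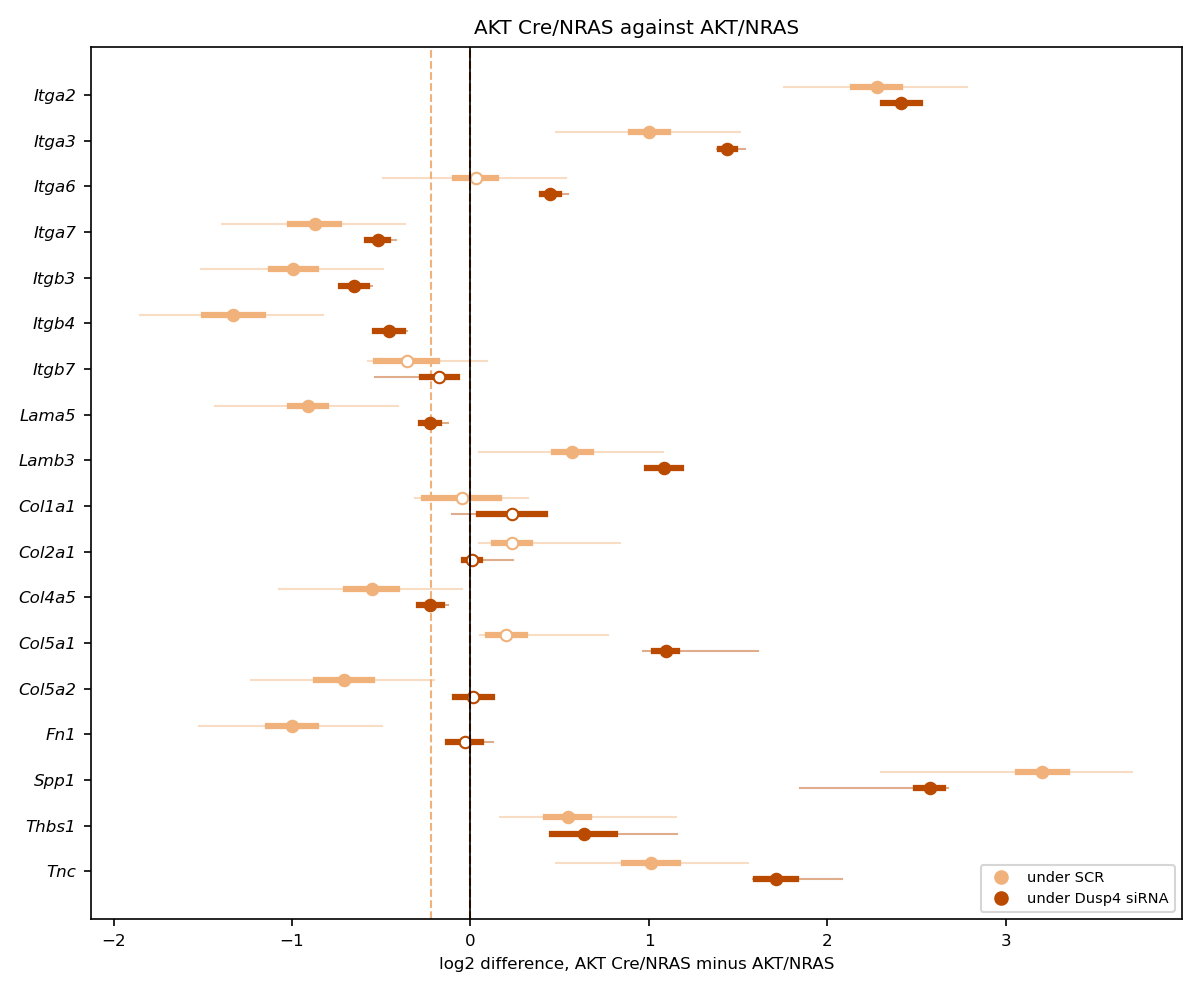
Log2 differences between the lines (AKT Cre/NRAS minus AKT/NRAS) under SCR and under *Dusp4* siRNA, with filled points for an adjusted p under 0.05, thick bars for the standard error, thin bars for the range over the scalings and dashed lines at the median of all tested genes. *Spp1* (3.20 and 2.57) and *Itga2* (2.28 and 2.41) lie far to the right, the thin bars are longer under SCR than under siRNA, and *Fn1* is 1.98-fold lower under SCR and at a log2 difference of -0.03 under siRNA.

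RefSeq promoter sequences of the build GRCm38.p6 were matched to 25 of the 40 genes. The 250 bases before the start are printed for the 5 matched genes that were higher in AKT Cre/NRAS than in AKT/NRAS under both siRNAs, to show what lies upstream of the higher genes, with motif matches in capitals. *Spp1* lies on the plus strand (chr5:104434861-104435110), *Itga2* on the minus strand (chr13:114932101-114932350), *Itga3* on the minus strand (chr11:95076715-95076964), *Lamb3* on the plus strand (chr1:193301744-193301993) and *Tnc* on the minus strand (chr4:64047016-64047265).
Spp1: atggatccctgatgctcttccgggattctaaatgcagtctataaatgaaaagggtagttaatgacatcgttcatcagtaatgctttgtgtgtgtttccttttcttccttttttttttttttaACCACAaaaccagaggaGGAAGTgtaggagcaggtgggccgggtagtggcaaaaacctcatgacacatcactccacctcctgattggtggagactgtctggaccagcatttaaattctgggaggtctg
Itga2: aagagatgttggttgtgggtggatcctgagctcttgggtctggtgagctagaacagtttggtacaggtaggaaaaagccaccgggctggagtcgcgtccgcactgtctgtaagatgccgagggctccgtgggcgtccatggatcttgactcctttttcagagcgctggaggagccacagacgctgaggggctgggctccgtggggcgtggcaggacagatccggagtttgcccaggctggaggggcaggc
Itga3: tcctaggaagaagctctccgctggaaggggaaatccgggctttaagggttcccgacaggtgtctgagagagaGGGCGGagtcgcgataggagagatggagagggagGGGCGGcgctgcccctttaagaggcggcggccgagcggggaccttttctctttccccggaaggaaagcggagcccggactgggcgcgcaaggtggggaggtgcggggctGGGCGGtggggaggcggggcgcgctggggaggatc
Lamb3: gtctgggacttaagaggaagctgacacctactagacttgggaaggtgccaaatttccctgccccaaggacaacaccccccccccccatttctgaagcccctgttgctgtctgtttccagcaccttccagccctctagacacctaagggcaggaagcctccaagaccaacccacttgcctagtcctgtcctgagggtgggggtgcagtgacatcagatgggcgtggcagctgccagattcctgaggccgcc
Tnc: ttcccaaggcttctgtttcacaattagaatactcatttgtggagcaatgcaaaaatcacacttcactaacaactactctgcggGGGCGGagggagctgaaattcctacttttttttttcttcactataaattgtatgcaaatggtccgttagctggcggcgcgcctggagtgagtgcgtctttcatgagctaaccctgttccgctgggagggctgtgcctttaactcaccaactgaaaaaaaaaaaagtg
Both strands were searched for AP-1 (TGANTCA), ETS (GGAAGT), TEAD (GGAATG), RUNX (TGTGGT) and GC box (GGGCGG) letters, which occur in 6.75%, 19.7%, 12.6%, 14.05% and 32.7% of the 32851 windows of this length. The *Spp1* window holds 1 RUNX match, on the minus strand, and 1 ETS match a few bases after it. The *Itga3* window holds 3 GC boxes and the *Tnc* window 1, and the *Itga2* and *Lamb3* windows hold none of the 5 motifs. No motif was shared by all 5 windows, which says only that these letters are not in these windows.

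The second comparison asks what *Dusp4* siRNA changed in AKT Cre/NRAS. After siRNA, 9 of the 40 genes were higher than after SCR, none was lower, 11 did not pass and 20 were at the floor in all 6 samples. At the level of the panel, 40.6% of the 503 tested genes were higher and 5.37% were lower, and the median gene rose by 0.23 on the log2 scale. The count of 9 among the 20 tested matrix and integrin genes thus lies near the background. *Itgb4* measured 781, 722 and 631 normalized counts after siRNA and 506, 335 and 314 after SCR (log2 difference 0.91, standard error 0.17, adjusted p = 0.00381). *Col5a1* measured 61.4, 61.2 and 54.3 after siRNA and 34.8, the floor and 32.3 after SCR (log2 difference 0.89, standard error 0.13, adjusted p = 0.00329). *Fn1* measured 7874, 7199 and 6155 after siRNA and 4832, 3543 and 3396 after SCR (log2 difference 0.86, standard error 0.14, adjusted p = 0.00333). In these 3 genes, as in all 9 that passed, every siRNA sample lay above every SCR sample. The groups did not overlap in 13 of the 20 tested genes, and the share over the panel was not counted. *Lama5* measured 1049, 973 and 934 against 690.3, 540.0 and 579 (log2 difference 0.71, standard error 0.11, adjusted p = 0.00329). *Tnc* measured 109, 83.9 and 81.9 against 74.4, 53.7 and 53.5 (log2 difference 0.60, standard error 0.17, adjusted p = 0.0194). *Itga3* measured 4231, 4071 and 3888 against 3264, 2735 and 2472 (log2 difference 0.53, standard error 0.11, adjusted p = 0.00518). *Itga6* (0.47, adjusted p = 0.00921), *Itgb3* (0.39, adjusted p = 0.0361) and *Lamb3* (0.32, adjusted p = 0.0458) rose by less.

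Relative to the median gene, 4 of these 9 still passed: after re-centring, *Fn1*, *Col5a1*, *Itgb4* and *Lama5* were higher, with log2 differences of 0.51, 0.58, 0.56 and 0.36, *Lamb3* was at -0.033, and *Col2a1*, close to the floor, passed as lower. Over the panel, 32 of 510 tested genes were higher after re-centring and 136 were lower. With the deposited values none of the 40 passed (5 at an unadjusted p under 0.05), beside 0 higher and 1 lower of 530 over the panel. Over the 8 scalings, *Col5a1* (0.58 to 1.02), *Fn1* (0.51 to 1.31) and *Lama5* (0.36 to 1.17) passed in 7. *Itgb4* (0.56 to 1.36), *Itga3* (0.18 to 0.99) and *Itga6* (0.12 to 0.92) passed in 6. *Tnc* passed in 4 (0.25 to 1.04), *Itgb3* in 3 (0.036 to 0.84) and *Lamb3* in 2 (-0.033 to 0.77). *Col5a1*, *Fn1*, *Itga3*, *Itgb4* and *Lama5* passed without any single library. *Itga6* was lost without siRNA replicate 1, *Tnc* without siRNA replicate 1 and without SCR replicate 2, and *Itgb3* and *Lamb3* without each of 5 libraries, all but SCR replicate 1. The ratio of *Rpl19* to *Polr2a* moved with this comparison (4.72 to 5.03 after siRNA, 5.48 to 6.88 after SCR), and its part in these rises was not tested. *Spp1* measured 101245, 115168 and 115311 after siRNA and 119863, 142698 and 161485 after SCR, groups that did not overlap, but its log2 difference of -0.35 did not pass (standard error 0.18, adjusted p = 0.126). *Itga2* (0.17, adjusted p = 0.12), *Itga7* (0.29, adjusted p = 0.0989) and *Col4a5* (0.30, adjusted p = 0.0982) did not pass either, and with the replicate number as a block *Itga7* did (adjusted p = 0.0373).

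In AKT/NRAS, where the fall of *Dusp4* was larger (interaction 1.28, adjusted p = 0.000728), 1 of the 40 genes was higher after siRNA, 1 was lower, 15 did not pass and 23 were at the floor in all 6 samples, beside 5.44% higher and 11.9% lower of the 496 tested genes of the panel and a median of -0.03. *Col5a2* measured 197, 235 and 236 normalized counts after siRNA and 309, 335 and 368 after SCR (log2 difference -0.60, standard error 0.10, adjusted p = 0.00856). *Spp1* measured 16928, 19518 and 19348 after siRNA and 15345, 15529 and 14872 after SCR (log2 difference 0.28, standard error 0.06, adjusted p = 0.0167). Neither gene's groups overlapped. *Col5a2* passed in 7 of 8 scalings, the exception being the deposited values (-0.26, adjusted p = 0.0654), and without any single library. *Spp1* passed in all 8 scalings and lost its call without AKT/NRAS siRNA replicate 3. The 6 genes that led the response in AKT Cre/NRAS gave log2 differences in AKT/NRAS of 0.04 (*Itgb4*), -0.11 (*Fn1*), 0.03 (*Lama5*) and 0.10 (*Itga3*), none of which passed. Over the 8 scalings, *Itga3* passed as higher in 3 (after re-centring 0.15, limma adjusted p = 0.0174), *Lama5* in 2, *Itgb4* in 1 and *Fn1* in 0. *Tnc* was at the common floor in 5 of the 6 samples and *Col5a1* in all 6.

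The third comparison asks whether the lines responded differently to the siRNA, by the interaction term of limma over all 12 samples. Of the 40 genes 21 were tested, and it passed for 10, with 9 more positive in AKT Cre/NRAS and 1 more negative. Over the panel, 40.6% and 4.76% of the 525 tested genes passed in these directions, with a median of 0.25. The 4 with the largest terms were *Fn1* (0.97, standard error 0.18, adjusted p = 0.00301), *Col5a1* (0.89, standard error 0.12, adjusted p = 0.001), *Itgb4* (0.87, standard error 0.21, adjusted p = 0.00734) and *Col5a2* (0.73, standard error 0.20, adjusted p = 0.0157). For *Col5a1* the term equals the difference in AKT Cre/NRAS, since no level was measured in AKT/NRAS. It cannot compare the responses of the lines, because a change below the floor would not be seen. For *Col5a2* it comes from a fall in AKT/NRAS and a difference of 0.13 in AKT Cre/NRAS that did not pass. *Tnc* (0.70), *Lama5* (0.68), *Lamb3* (0.51), *Itga3* (0.44) and *Itga6* (0.42) also passed. *Spp1* had the 1 negative term (-0.63, standard error 0.16, adjusted p = 0.00899), with a log2 difference of 0.28 in AKT/NRAS and -0.35 in AKT Cre/NRAS. After re-centring, the split was 4 positive (*Col5a1*, *Fn1*, *Itgb4* and *Lama5*) and 2 negative (*Spp1* and *Col2a1*). With quantile normalization it was 3 and 2, and with the deposited values 1 and 1. The panel's split in these scalings was 50 positive and 151 negative of 524, 98 and 92 of 551, and 2 and 30 of 551. *Fn1*, *Lama5* and *Spp1* passed in 6 of the 7 scalings that could be fitted, and *Itgb4* in 5. *Col5a1* passed in all 7, where its term is again only the difference in AKT Cre/NRAS.

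**Figure D3:**
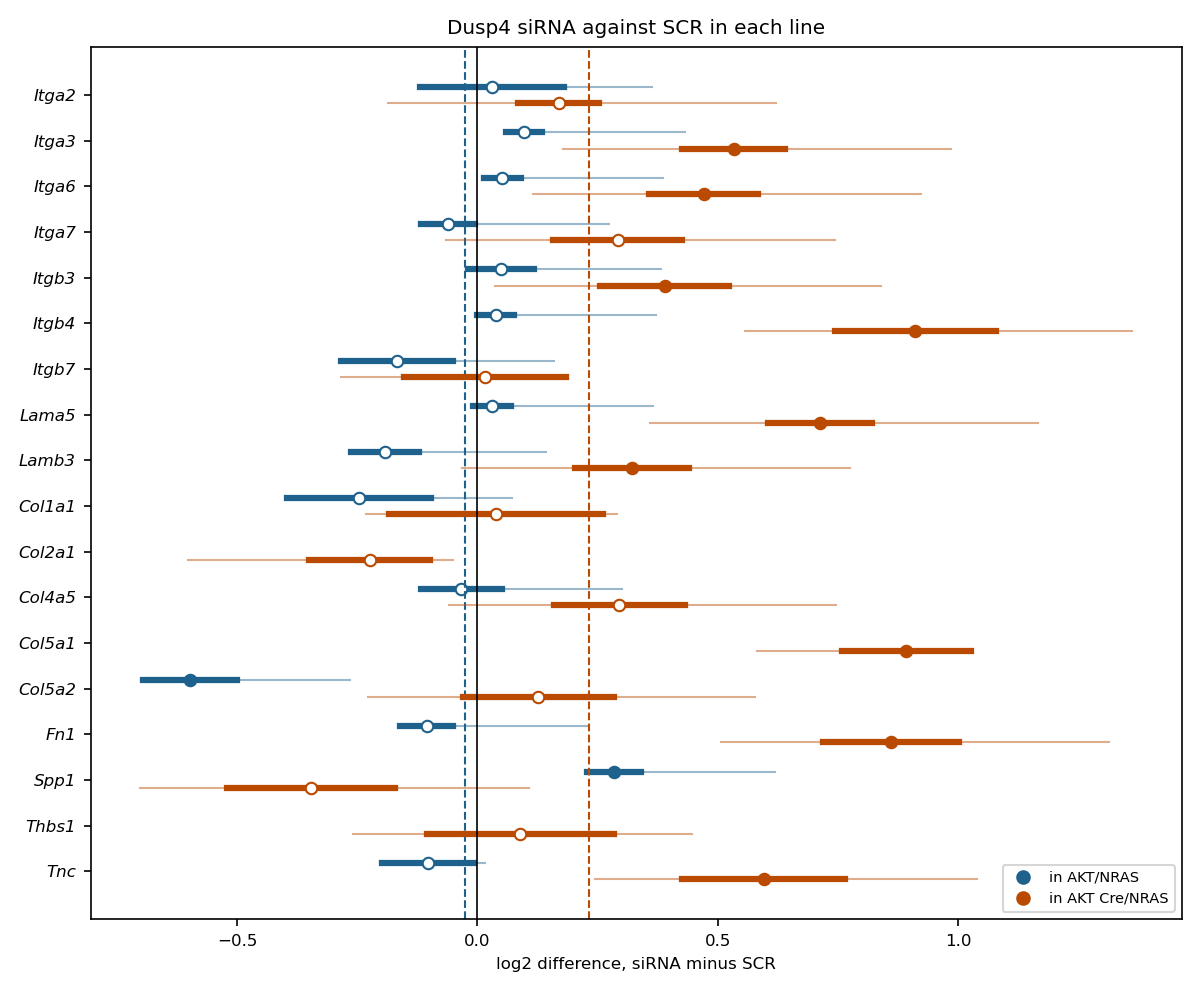
Log2 differences after *Dusp4* siRNA (siRNA minus SCR) in AKT/NRAS and in AKT Cre/NRAS, with filled points for an adjusted p under 0.05, thick bars for the standard error, thin bars for the range over the scalings and dashed lines at the median of all tested genes (-0.03 and 0.23). In AKT Cre/NRAS the points of *Itgb4*, *Col5a1*, *Fn1* and *Lama5* lie to the right of the panel median with long thin bars, and in AKT/NRAS *Col5a2* and *Spp1* are the filled points.

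Ratios of 2 deposited signals within a sample are untouched by any scaling that multiplies a whole sample by 1 factor, which leaves out quantile normalization, and they were taken for pairs chosen after the values had been seen, without a test. The log2 ratio of the *Spp1* signal to the *Fn1* signal was 0.98 ± 0.07 in AKT/NRAS SCR, 1.37 ± 0.19 in AKT/NRAS siRNA, 5.18 ± 0.49 in AKT Cre/NRAS SCR and 3.97 ± 0.27 in AKT Cre/NRAS siRNA (SD, n = 3 each). It was thus higher in AKT Cre/NRAS by 4.20 under SCR and 2.61 under siRNA, and it changed after siRNA by 0.39 in AKT/NRAS and by -1.21 in AKT Cre/NRAS. The ratio of *Itga2* to *Itgb3* differed between the lines by 3.28 under SCR and 3.08 under siRNA, and that of *Itga3* to *Itga7* by 1.88 and 1.96. The ratio of *Lamb3* to *Lama5* differed by 1.49 and 1.32, and that of *Itgb4* to *Itga6* by -1.36 and -0.91. In these pairs the AKT Cre/NRAS samples did not overlap the AKT/NRAS samples. They did overlap for *Col5a2* to *Col4a5*, a pair whose ratio differed between the lines by -0.15 under SCR and 0.24 under siRNA. After siRNA in AKT Cre/NRAS, the ratio of *Itgb4* to *Itga6* rose from -2.59 ± 0.21 to -2.15 ± 0.09 (SD, n = 3 each), and in AKT/NRAS it was -1.23 ± 0.03 and -1.25 ± 0.08.

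**Figure D4:**
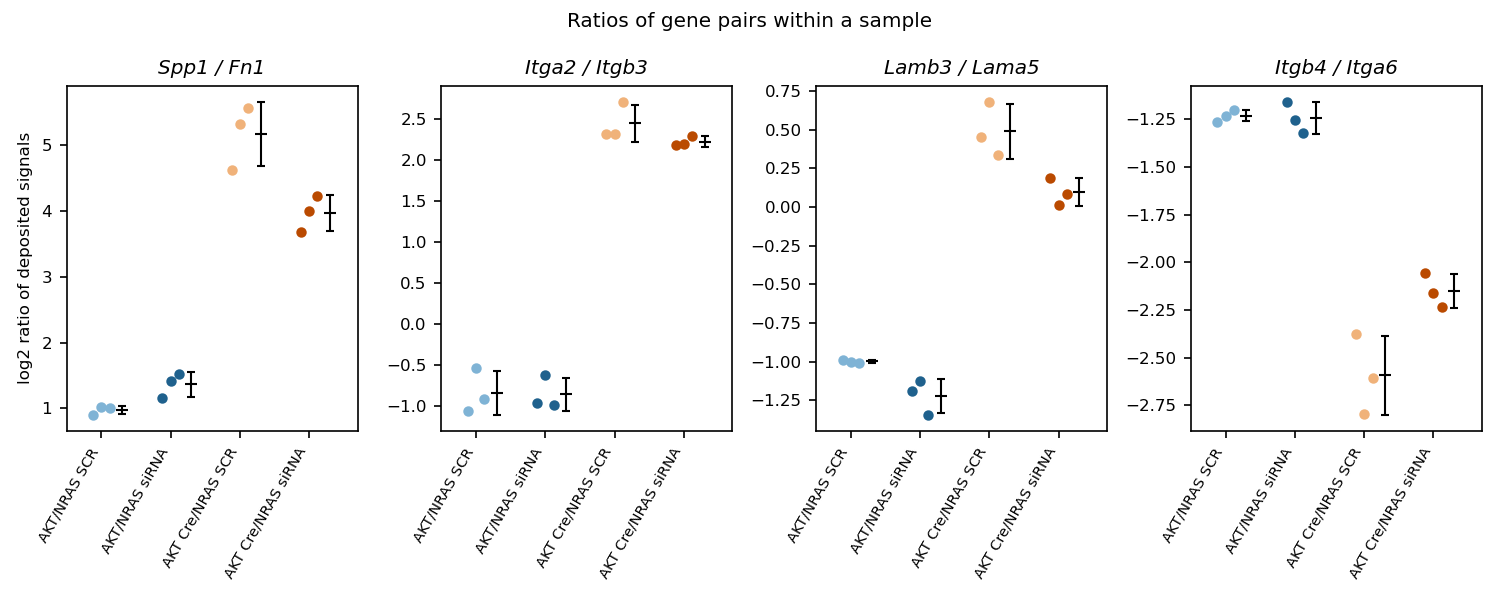
Log2 ratios of 4 gene pairs within each of the 12 samples, with 3 points per group and the mean and SD beside them; each panel has its own axis, which need not start at 0. The *Spp1* to *Fn1* ratio is 0.90 to 1.52 in AKT/NRAS and 3.68 to 5.57 in AKT Cre/NRAS, and the *Itga2* to *Itgb3* ratio is below 0 in AKT/NRAS and above 2 in AKT Cre/NRAS.

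Genes that act next to these were taken from 3 lists. Of 17 genes of integrin signalling, 12 were tested between the lines, and under SCR 11 were lower in AKT Cre/NRAS and 1 was higher, with a median log2 difference of -0.86, beside 48.0% lower, 28.9% higher and a median of -0.22 over the panel. Under siRNA 9 were lower, 1 was higher and 2 did not pass, with a median of -0.31. Over the scalings the count of lower genes ran from 5 to 11 under SCR and from 6 to 9 under siRNA. *Flnc*, an actin cross-linker that binds integrin tails, was lowest against AKT/NRAS (69.9 against 814 mean normalized counts under SCR, log2 difference -3.56, adjusted p = 5.93e-07), followed in p by the Ras exchange factor *Sos1* (-1.67) and the adaptor *Shc2* (-1.36), while the kinase *Pak3* was at the floor in AKT/NRAS and at 63.6 to 90.3 in AKT Cre/NRAS. After siRNA, 9 of the 12 were higher in AKT Cre/NRAS and none lower, beside 40.6% higher over the panel, and in AKT/NRAS *Ptk2* (focal adhesion kinase, -0.20, adjusted p = 0.019) and *Capn2* (a protease of focal adhesions, -0.14, adjusted p = 0.0467) were lower and 9 did not pass. The count of higher genes in AKT Cre/NRAS ran from 0 to 11 over the scalings, and in AKT/NRAS 0 to 5 genes were higher and 0 to 4 lower over the scalings, and 0 to 3 lower without 1 library. Of 5 genes of matrix turnover, 3 were measured and all 3 were higher in AKT Cre/NRAS under both siRNAs, beside 28.9% and 36.6% of the tested panel. Over the scalings 1 to 3 were higher under SCR and 3 under siRNA. Urokinase (*Plau*) measured 288 against 98.2 on average under SCR (log2 difference 1.54, adjusted p = 2.19e-06) and tissue plasminogen activator (*Plat*) 2619 against 1487 (0.81, adjusted p = 0.000104), while the gelatinase *Mmp9* was at the floor in AKT/NRAS and at 34.6 to 50.3 in AKT Cre/NRAS. None of the 3 passed after siRNA in either line. Of 8 TGF-β ligands, receptors and Smads, which drive much matrix transcription, 7 were lower in AKT Cre/NRAS under SCR and none higher, beside 48.0% lower over the panel. The largest of these was *Tgfb3* (123 against 919.5 on average, log2 difference -2.89), followed in p by *Tgfbr1* (-1.50) and *Smad3* (-1.18). Between the lines under siRNA, 4 were lower, *Smad4* was higher and 3 did not pass, beside 37.9% lower and 36.6% higher over the panel. The list's median was -0.17 there, against -0.93 under SCR. Over the scalings 3 to 4 were lower and 1 to 3 higher under siRNA. After siRNA, 6 of the 8 rose in AKT Cre/NRAS, with the smallest p for *Smad3* (0.71), *Tgfbr2* (0.46) and *Tgfb1* (0.76). The list's median of 0.31 lay near the panel's 0.23, and 40.6% of the panel rose. In AKT/NRAS 4 fell (*Smad3*, *Smad4*, *Tgfb1* and *Tgfbr1*) and *Tgfbr2* rose. The count of rises in AKT Cre/NRAS ran from 0 to 7 over the scalings, that of falls in AKT/NRAS from 0 to 5 over the scalings, with 0 to 3 rises, and from 0 to 3 without 1 library, and that of lower genes between the lines under SCR from 3 to 7 over the scalings.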

How the data were processed

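The 12 samples were 3 of each line and siRNA, grouped by their labels, which give replicate numbers 1 to 3; the study's methods call them biological replicates. RNA was extracted from the cultured cells, hybridised to the panel and counted on the nCounter, and the authors processed it in nSolver. The deposited signal values are barcode counts multiplied by a factor from 6 positive controls, with 20 as the lowest value; dividing by the factor gave whole numbers (within 0.05) for 100% of the values above that floor. The 8 negative controls counted 3 to 20. The deposited signal was not scaled to the reference genes. Here each sample was scaled to the geometric mean of 15 of the panel's 20 reference genes, kept by the geNorm rule of least pairwise variation, since the methods name an automatic choice of that kind, and every value under 27.1, the highest scaled floor, was set to it. Tests were limma (version 3.58.1 in R 4.3.3) with an intensity trend on log2(value + 1), over the 2 groups compared, or over all 12 samples for the interaction, leaving out genes at the floor in all samples of the comparison, with Benjamini-Hochberg adjustment over all tested genes and a threshold of 0.05. The fit was tested on simulated data. Tables and plots were made in Python 3.11.15 with pandas 2.3.3, numpy 2.4.6 and matplotlib 3.10.9.

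The 8 scalings were this one, the deposited values, all 20, 10 or 5 reference genes, reference genes chosen within the comparison, median re-centring and quantile normalization. The other alternatives were a pseudocount of 10, no filter, a mean filter of 50, each sample's own floor, 1 fit over all groups, the replicate number as a block, Benjamini-Yekutieli adjustment, no intensity trend, an ordinary linear model, and leaving out each library. Same-numbered siRNA and SCR samples of AKT Cre/NRAS correlated at r = 0.218, 0.116 and 0.227 in their deviations from the group means over 446 genes. Whether the numbers pair these samples is stated by no label and cannot be settled by these values. The main fits use no pairing, and the block is given as an alternative. The members, the gene lists and the promoter motifs were chosen with earlier results of these data known. Values in every sample are given for the members with the 6 largest passing differences in a comparison (4 for the interaction), and the other members by means, ranges or counts. Adjacent lists are described by the genes with the smallest p values and, chosen after their values were seen, *Pak3*. The values of some genes are not reported here.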

Additional observations from a re-analysis of the deposited data

Results flagged for a closer look

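The interaction of line and siRNA is a direct test of whether the response to *Dusp4* siRNA differed between the lines, for genes measured in both. It passed the threshold for 10 of the 40 matrix and integrin genes, 21 of which were tested. Over the panel, 40.6% of the 525 tested genes passed with a positive term and 4.76% with a negative one. The count of 10 thus lies near the background. The terms, as AKT Cre/NRAS minus AKT/NRAS on the log2 scale, were 0.97 for *Fn1*, 0.89 for *Col5a1*, 0.87 for *Itgb4*, 0.73 for *Col5a2*, 0.70 for *Tnc*, 0.68 for *Lama5*, 0.51 for *Lamb3*, 0.44 for *Itga3*, 0.42 for *Itga6* and -0.63 for *Spp1*. The median term over all tested genes was 0.25. Relative to the median gene the terms were 0.55 for *Fn1*, 0.58 for *Col5a1*, 0.46 for *Itgb4*, 0.27 for *Lama5* and -1.04 for *Spp1*, which passed, and 0.31 for *Col5a2*, 0.30 for *Tnc*, 0.10 for *Lamb3*, 0.02 for *Itga3* and 0.01 for *Itga6*, which did not. *Itga6* lost its call without any 1 of 5 libraries (AKT/NRAS siRNA replicate 1, AKT/NRAS SCR replicates 1 and 2, and AKT Cre/NRAS siRNA replicates 1 and 2). *Tnc* was at the common floor in 5 of the 6 AKT/NRAS samples and *Col5a1* in all 6. Their terms are thus set by AKT Cre/NRAS and cannot compare the responses of the lines.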

How the results depend on the processing

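Between the lines, the count of matrix and integrin genes that passed stayed within 1.5 times the reported 13 under every alternative run, and leaving out 1 library gave 13 to 15 under SCR and 13 to 14 under siRNA, although the SCR split between higher and lower moved with the scaling. For the siRNA in AKT Cre/NRAS, the 9 genes became 0 with the deposited values (5 at an unadjusted p under 0.05), 0 by an ordinary linear model (9 unadjusted), 2 with no filter, 5 by Benjamini-Yekutieli, 5 after median re-centring, and 5 to 11 without 1 library, with 5 without siRNA replicate 1. For the siRNA in AKT/NRAS, the 2 genes became 9 with the deposited values, 4 with quantile normalization, 1 with no filter, 1 in the fit over all groups, 0 by Benjamini-Yekutieli (4 unadjusted), 0 by an ordinary linear model (3 unadjusted), and 1 to 3 without 1 library, with 1 without siRNA replicate 3. Over the panel, 287 of 507 tested genes were higher there and 3 lower with the deposited values. Quantile normalization gave 46 higher and 39 lower of 507, so that both counts of these genes moved with the panel's. For the interaction, the 10 genes became 2 with the deposited values, 6 after median re-centring, 5 with quantile normalization, 3 by Benjamini-Yekutieli, and 9 to 13 without 1 library. Over the panel, 2 positive and 30 negative terms of 551 passed with the deposited values, and 50 and 151 of 524 after re-centring. Quantile normalization gave 98 and 92 of 551, and Benjamini-Yekutieli 101 and 0 of 525. The panel's own count of higher genes after siRNA in AKT Cre/NRAS ran from 0 with the deposited values to 254 with 5 reference genes, and the cause was not tested. *Lamb3* turned to -0.033 after re-centring in AKT Cre/NRAS, *Col4a5* and *Itga7* to 0.30 and 0.27 with the deposited values in AKT/NRAS, and the interaction of *Itga6* to -0.0038 with the deposited values. A gene that passed neither way was counted as holding its result.

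The log2 difference of *Dusp4* in AKT Cre/NRAS was -0.54 in the deposited signal (limma adjusted p = 0.37), -0.27 with 10 reference genes (adjusted p = 0.205) and 0.00098 with 5. It was -0.45 with no filter, by Benjamini-Yekutieli and by an ordinary linear model, with adjusted p between 0.106 and 0.121, and -0.60 to -0.35 without 1 library, losing its call without siRNA replicate 1 or 3 or SCR replicate 2. Its interaction was 0.85 with the deposited values (adjusted p = 0.0741) and 1.13 to 1.38 without 1 library. Without 1 library it was -1.77 to -1.69 for the siRNA in AKT/NRAS, 2.06 to 2.31 between the lines under SCR and 3.40 to 3.49 under siRNA. With the replicate number as a block, 10 genes passed for the siRNA in AKT Cre/NRAS, 2 in AKT/NRAS, 13 and 13 between the lines and 10 for the interaction, and apart from *Itga7* no member's call changed. With the number as a block within each line, chosen after seeing the data, the interaction gave 11. In the other comparisons, same-numbered samples correlated at -0.078, -0.025 and -0.070 for the siRNA in AKT/NRAS. Between the lines they correlated at -0.022, 0.007 and -0.049 under SCR, and at 0.213, 0.026 and 0.158 under siRNA. For the interaction, reference genes within the comparison and 1 fit over all groups could not be run. The floor limits what can be said of 19 of the 40 genes, and 3 samples per group limit the precision.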
